A study of Mus musculus with 12 samples.

Results

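Malat1, Neat1, Miat, Kcnq1ot1, Tug1, Pvt1, Meg3, Rian and Mirg are mouse genes whose long transcripts are not translated. They were taken as a named list of nuclear and imprinted long non-coding RNAs, and their symbols were matched to Ensembl identifiers, which gave 9 genes of the 55401 counted in each library. All 12 libraries came from Neuro-2a, an established mouse neuroblastoma line grown as an adherent culture, and there were 4 libraries in each of 3 groups. Every culture received 1 µg of a plasmid encoding GFP together with 3 µg in total of plasmid encoding an artificial miRNA built on the miR30 backbone. The miScramble group, the control, received a scrambled miRNA, the miRbmx group a pool of 3 plasmids directed against Rbmx, and the miRbmxl1 group a pool of 2 plasmids directed against Rbmxl1. GFP-positive cells were sorted 48 h after transfection in all 3 groups, so each library is a sorted, transiently transfected population of 1 cell line, and no untransfected group was analysed here. The labels number biological replicates 1 to 4 in every group and mention 1 well per condition. They do not say whether the replicates were separate cultures, so p-values here measure the spread between these libraries, which may be technical.

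Rbmx encodes a nuclear RNA-binding protein of the hnRNP family (hnRNP G), and Rbmxl1 is a retrogene copy of it. Long non-coding RNAs of the nucleus act as scaffolds or regulators where they are made or in nuclear bodies. Malat1 accumulates in nuclear speckles, the bodies that store splicing factors. Neat1 is the RNA scaffold of paraspeckles, and Miat forms a body of its own in neurons. Kcnq1ot1, made from the paternal allele only, silences neighbouring genes of the Kcnq1 domain in cis, whereas Meg3, Rian and Mirg are made from the maternal allele of the Dlk1-Dio3 domain, where Rian hosts small nucleolar RNAs and Mirg hosts miRNAs. Tug1 is a widely expressed RNA with roles in the nucleus and cytoplasm, and Pvt1 lies next to the oncogene Myc.

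Malat1 and the long isoform of Neat1 share an unusual 3′ end, shown here as a feature of these RNAs. Tug1, the third RNA that fell in the miRbmx group, does not hold the pattern, and the counts per gene do not separate the isoforms of Neat1. Malat1 and the long isoform of Neat1 do not end in an added poly(A) tail. The tRNA-processing enzyme RNase P cuts the precursor instead, and a genome-encoded A-rich tract then pairs with U-rich motifs upstream of it in a triple helix that protects the end. Both stretches below are in DNA letters, 5′ to 3′ on the transcribed strand, from the GENCODE M21 transcripts on GRCm38. Capitals mark the U-rich motifs (TTTTTCTTTT or TTTTGCTTTT) and the A-rich tract (AAAAAGCAAAA).

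Malat1: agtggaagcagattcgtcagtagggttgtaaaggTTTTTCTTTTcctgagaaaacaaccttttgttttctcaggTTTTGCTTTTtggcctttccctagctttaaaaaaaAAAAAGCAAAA
Neat1: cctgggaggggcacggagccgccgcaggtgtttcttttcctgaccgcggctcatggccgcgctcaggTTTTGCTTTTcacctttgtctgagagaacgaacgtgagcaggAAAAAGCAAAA

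The Malat1 stretch lies at chr19:5795982-5796101 on the minus strand, positions 6572 to 6691 of the annotated transcript of 6983 bases, with 292 bases after it. The Neat1 stretch lies at chr19:5824708-5824827 on the minus strand and is the last 120 bases of the transcript of 20771 bases. Malat1 holds both U-rich motifs in this window and Neat1 holds TTTTGCTTTT alone. The pattern was written down from these 2 genes, so that both hold it is not a finding. On the transcribed strand, AAAAAGCAAAA occurred in the longest annotated transcript of 174 of 17540 genes (0.992%), and with either U-rich motif in the 109 bases before its last occurrence in 3 of them (0.0171%), namely Malat1, Neat1 and the protein-coding gene Ahdc1. The other 7 listed RNAs did not hold that combination in their longest transcript.

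The annotation places the 9 genes on 6 chromosomes (GENCODE M21, GRCm38). Malat1 (ENSMUSG00000092341, chr19:5795690-5802672) and Neat1 (ENSMUSG00000092274, chr19:5824708-5845478) are neighbours on the minus strand. Kcnq1ot1 (ENSMUSG00000101609, chr7:143203458-143296549) is 1 exon of 93092 bases on the minus strand, antisense to Kcnq1. Tug1 (ENSMUSG00000056579, chr11:3639785-3649673, minus strand) overlaps exons of Morc2a on the other strand. Pvt1 (ENSMUSG00000097039, chr15:62037986-62378096, plus strand) spans 340111 bases but holds 6996 bases of exon. Meg3 (ENSMUSG00000021268, chr12:109541001-109571726), Rian (ENSMUSG00000097451, chr12:109603940-109661716) and Mirg (ENSMUSG00000097391, chr12:109729764-109749460) follow each other on the plus strand. Miat (ENSMUSG00000097767, chr5:112213228-112229395) lies on the minus strand. The strand setting of the counting is not given in the sources used here, so reads from Tug1 and Morc2a, or from Kcnq1ot1 and Kcnq1, cannot be told apart where they overlap. Kcnq1 itself had 1 count over the 12 libraries.

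The libraries held 43096846 to 52241198 reads in genes, so 3 counts, the number up to which a gene may be at the limit of detection, corresponded to 0.0574 to 0.0696 CPM (counts scaled to a common library size). Rbmx averaged 67.7 CPM in miScramble and 27.6 in miRbmx (log2 fold change −1.30 ± 0.08, SE, adjusted p = 2.1e-07), and Rbmxl1 averaged 34.1 in miScramble and 14.2 in miRbmxl1 (−1.27 ± 0.09, adjusted p = 3.2e-06), by edgeR's quasi-likelihood test with Benjamini-Hochberg adjustment. Rbmx averaged 86.3 CPM in miRbmxl1 (0.36 ± 0.07, adjusted p = 0.0165, 0.444 without the replicate block). The genes are near copies, so reads that fit both are uncertain. All 10 markers of neuroblastoma and sympathetic neurons averaged at least 1 CPM (summed level 1531 to 2134 CPM), against 1 of 5 of fibroblasts (summed level 0.97 to 2.98), 2 of 5 of glia (12.9 to 20.0, nearly all of it Mbp, with Aqp4 at 0 in 12 libraries), 0 of 4 of blood and immune cells (0.453 to 1.48, with Hba-a1 at 0 in 12) and 1 of 3 of endothelium (4.62 to 7.82, nearly all of it Pecam1). The share of reads outside annotated genes was 26.3 to 29.2% in replicates 1 and 2 and 30.8 to 32.2% in replicates 3 and 4 of every group, so these 2 sets of replicate numbers stood apart and are given separately below. Between groups, the shares of reads outside genes, of reads with several alignments and of mitochondrial reads did not pass an exact two-sided permutation test in any of 6 comparisons (lowest p = 0.314, adjusted p = 0.83, n = 4 per group, smallest possible p = 0.0286). That test does not use the replicate numbers. The share with several alignments was higher in miRbmx than in miScramble in all 4 same-number pairs (means 24.6 and 22.7%), and its part in the results below was not tested.

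Levels per kilobase of exon differed widely among the RNAs. Malat1, Tug1 and Neat1 ranked high among long non-coding RNAs, but Rian, Meg3, Mirg and Miat were scarce in these cells, so the list as a whole is not one of abundant RNAs. The libraries were of total RNA, so location in the nucleus was not measured. In miScramble, Malat1 stood at 385 ± 41.9 CPM per kilobase (SD, n = 4) and took 0.271% of the reads in genes. By the mean of the miScramble libraries it had rank 50 of 17540 genes and rank 2 of 1607 long non-coding RNAs. All ranks given here use that mean. Tug1 followed at 10.9 ± 0.703 and Neat1 at 5.28 ± 0.657 CPM per kilobase, ranks 37 and 83 among the long non-coding RNAs. Pvt1, at 4.48 ± 0.148, overlapped Neat1, so the order of these neighbours was not resolved. Kcnq1ot1 stood at 1.155 ± 0.194, and its length of 93.1 kb brings a CPM close to that of Neat1 down to rank 427. The order of Neat1 and Pvt1 also depended on the length used, since Pvt1 stood at 9.45 CPM per kilobase of its longest annotated transcript.

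Rian, Meg3, Mirg and Miat lay far below. Rian averaged 0.163 ± 0.0418 CPM per kilobase in miScramble (rank 1319 of 1607), and did not overlap Meg3 at 0.0509 ± 0.0166 (rank 1575). Mirg, at 0.0339 ± 0.0315 (rank 1600), overlapped both Meg3 and Miat. Miat collected 15 counts in all 12 libraries together, 0 to 5 per library and 0 in 4 of them, and was too low to test. At this depth neither a Miat level nor a Miat change was detectable, and the 8 other RNAs were tested.

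**Figure D1:**
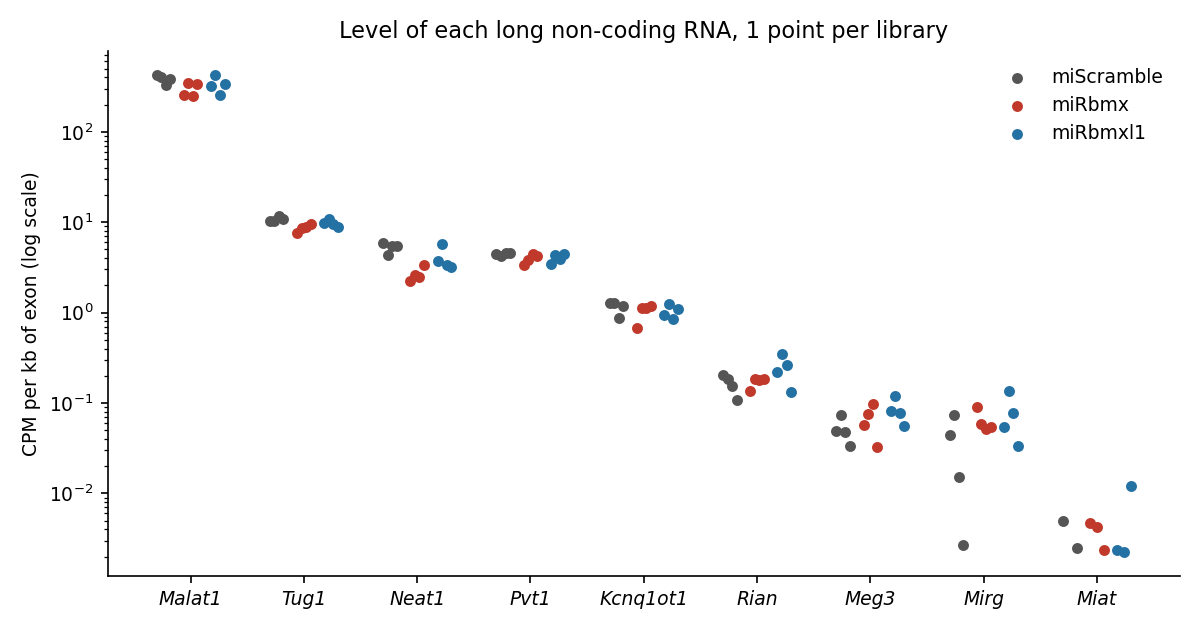
Level of each long non-coding RNA in CPM per kilobase of exon (vertical axis, log scale), with 1 point per library coloured by group. Malat1 lies between 246 and 429 and the other RNAs fall away towards Miat, whose 4 libraries at 0 cannot be drawn on a log axis.

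In the miRbmx group 3 of the 8 tested RNAs fell against miScramble, namely Neat1, Malat1 and Tug1, and none rose. With the replicate number as a block, 8.35% of all 17569 genes tested passed an adjusted p of 0.05 in this comparison, and 4.19% of all genes passed and were lower. With an unadjusted p under 0.05 and the block there were 5 of the 8, where 24.9% of all genes had one. The median log2 fold change over the 8 RNAs was −0.18, against 0.00 over all genes. In bulk RNA, fewer cells that make an RNA and less of it per cell cannot be told apart. Without the block none of the 8 passed (the lowest adjusted p was 0.178), where 0.00569% of all genes, a count of 1, passed. With an unadjusted p under 0.05 and no block there were 3, Neat1, Malat1 and Tug1, where 10.9% of all genes had one.

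Neat1, counted over all its isoforms together, showed the largest fall. Its levels were 124, 90.9, 112 and 112 CPM in miScramble replicates 1 to 4 and 46.1, 53.7, 52.1 and 69.7 CPM in miRbmx replicates 1 to 4. The groups did not overlap, and the highest miRbmx library (replicate 4) stayed below the lowest control (replicate 2). The means were 109.7 ± 13.6 and 55.4 ± 10.1 CPM (SD, n = 4), and the fitted level was 50.1% of the control (log2 fold change −0.997 ± 0.15, SE, 95% confidence interval −1.32 to −0.67, adjusted p = 0.00428, edgeR). The adjusted p without the replicate block was 0.178 at nearly the same estimate of −0.99. Leaving out any 1 library or any 1 replicate number kept the call, with estimates of −1.17 to −0.86.

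Malat1, the speckle RNA, stood at 2954, 2855, 2292 and 2657 CPM in the 4 miScramble libraries. In miRbmx it stood at 1782, 2417, 1721 and 2363 CPM. The groups overlapped, because miRbmx replicates 2 and 4 lay above miScramble replicate 3, while each miRbmx library lay below the miScramble library of its own number. The change was −0.39 ± 0.08 (SE, 76.4% of the control, adjusted p = 0.0149 with edgeR, 0.412 without the block). The call was lost without miScramble replicate 1 (adjusted p = 0.0556), miScramble replicate 3 (0.0681) or miRbmx replicate 1 (0.0571), and without replicate number 1 (0.0665) or 3 (0.0769), with the estimate between −0.38 and −0.28 in these 5 fits.

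Tug1 stood at 101, 100.2, 115 and 107 CPM in miScramble and at 73.4, 84.4, 86.7 and 92.4 CPM in miRbmx. The groups did not overlap. The change was −0.33 ± 0.07 (SE, 79.4% of the control, adjusted p = 0.0159 with edgeR, 0.266 without the block). Its call lay close to the threshold and was lost with a GC trend removed (−0.24, adjusted p = 0.0521), without miScramble replicate 1, 3 or 4, without miRbmx replicate 1, 2 or 3, and without replicate number 1 or 3 (adjusted p = 0.0508 to 0.0920), although the estimate kept its sign. Of the 8 RNAs, Neat1 and Tug1 had miRbmx levels wholly below the control, where 3.85% of all genes did.

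Pvt1 and Kcnq1ot1 did not pass. Pvt1 stood at 31.3, 29.9, 32.2 and 32.0 CPM in miScramble and at 23.6, 26.4, 31.5 and 29.6 CPM in miRbmx (−0.18 ± 0.08, adjusted p = 0.156, edgeR), and the estimate was −0.11 without miScramble replicate 1. The groups overlapped, but Pvt1 was lower in all 4 same-number pairs, as were Neat1, Malat1 and Tug1, where 16.8% of all genes were. Kcnq1ot1 stood at 120.1, 119, 81.5 and 109.3 CPM in miScramble and at 63.3, 105, 104 and 109.7 CPM in miRbmx (−0.18 ± 0.13, adjusted p = 0.433, edgeR). Its groups overlapped, 2 pairs went each way, and the low mean of miRbmx came from replicate 1: without that library the estimate was 0.01, and without miScramble replicate 1 it was −0.0095.

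**Figure D2:**
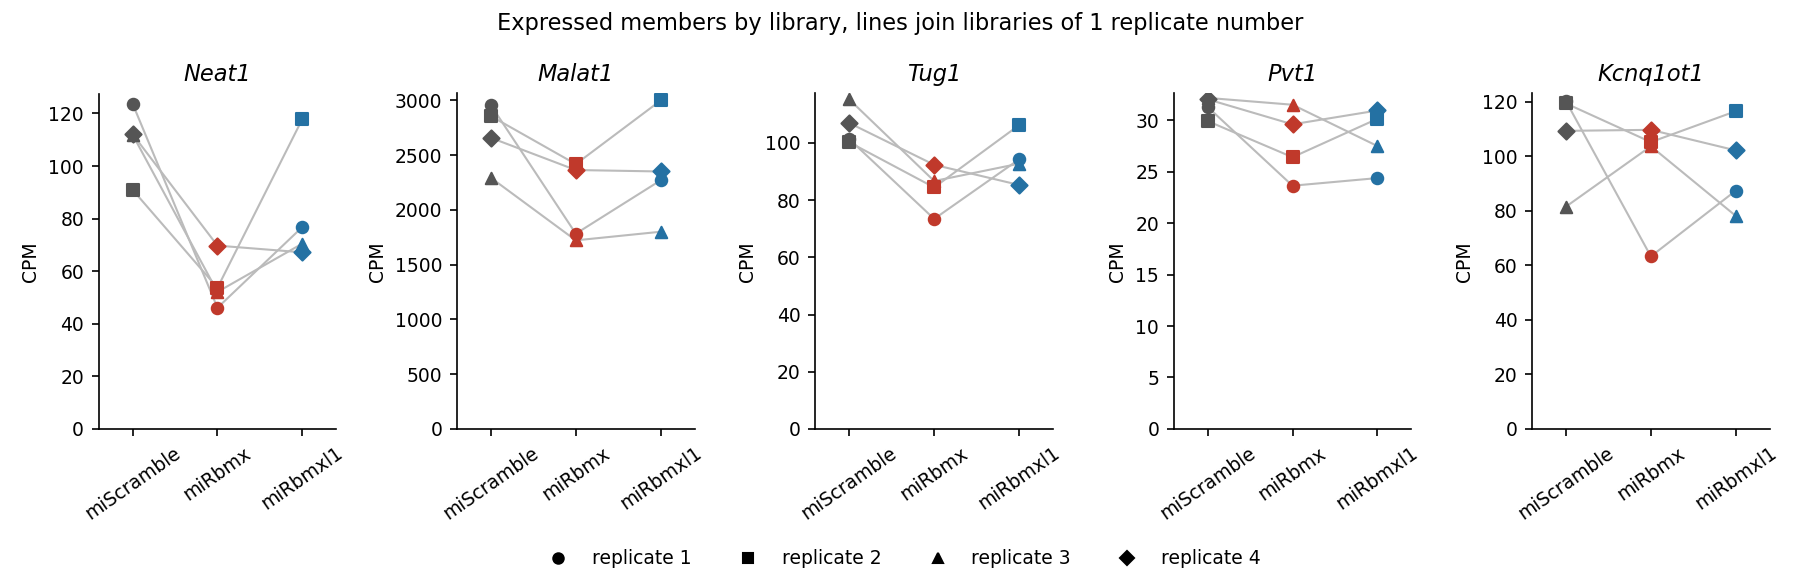
CPM of Neat1, Malat1, Tug1, Pvt1 and Kcnq1ot1 in each library (vertical axes start at 0), with grey lines joining the libraries of 1 replicate number across the 3 groups. Neat1 runs from 90.9 to 124 in miScramble and from 46.1 to 69.7 in miRbmx, whereas the Kcnq1ot1 lines cross.

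In the miRbmxl1 group none of the 8 RNAs passed against miScramble by edgeR with the block, where 4.46% of all genes did, and none passed by DESeq2, which gave 7 of them an adjusted p and Mirg none. With an unadjusted p under 0.05 there were 6 of the 8 with the block, where 19.8% of all genes had one, and 1 without it (Neat1), where 8.46% had one. Neat1 stood at 76.8, 118, 70.5 and 67.2 CPM in the 4 miRbmxl1 libraries, a mean of 83.1 ± 23.5 (log2 fold change −0.42 ± 0.15, 95% confidence interval −0.75 to −0.09, adjusted p = 0.133, edgeR). Replicates 1, 3 and 4 lay below all 4 controls and replicate 2 lay among them, so the groups overlapped through that library. Without miRbmxl1 replicate 2 the estimate was −0.66 with an adjusted p of 0.00541, and without replicate number 2 in all groups −0.69 with 0.00770. Without miRbmxl1 replicate 4 it was −0.28 with 0.402.

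Malat1 stood at 2269, 2998, 1799.9 and 2349.8 CPM in miRbmxl1 (−0.21 ± 0.08, adjusted p = 0.170). Replicate 2 was again the highest, above every control. Without miScramble replicate 1 the Malat1 estimate was −0.12. Without the filter on low counts Malat1 (adjusted p = 0.0114) and Neat1 (5.2e-07) were called at −0.22 and −0.42. Their SE was then 0.0586 and 0.0699, against 0.0844 and 0.154 with the filter, at nearly the same estimates. Tug1 stood at 94.3, 106, 92.7 and 85.3 CPM (−0.16 ± 0.07, adjusted p = 0.241), with replicate 2 alone inside the control range. Its estimate was −0.093 without miRbmxl1 replicate 4, and −0.093 with a GC trend removed. Pvt1 stood at 24.4, 30.1, 27.5 and 30.9 CPM (−0.16 ± 0.08, adjusted p = 0.280), overlapping the controls in replicates 2 and 4, and its estimate was −0.083 without miScramble replicate 1. Kcnq1ot1 stood at 87.3, 116, 78.1 and 102 CPM (−0.17 ± 0.13, adjusted p = 0.496), and its estimate was 0.0103 without miScramble replicate 1. It was lower in all 4 pairs, where 12.6% of all genes were, and its groups overlapped.

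**Figure D3:**
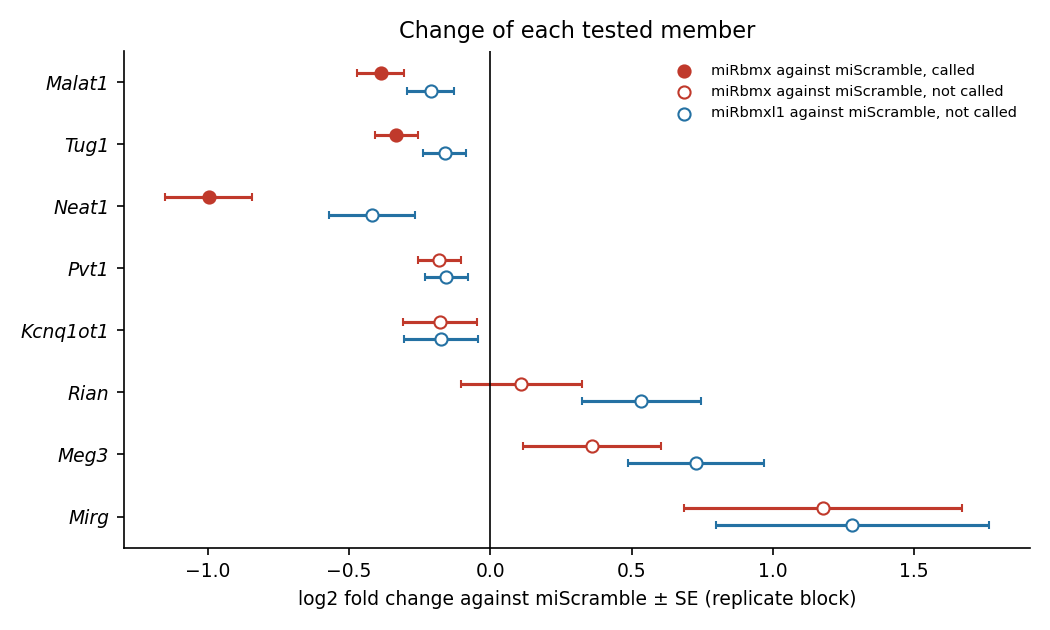
log2 fold change against miScramble of each tested RNA (horizontal axis; points with bars of ± 1 SE from the fit with the replicate block), red for miRbmx and blue for miRbmxl1, filled where the adjusted p was under 0.05. The filled points are Malat1, Tug1 and Neat1 in miRbmx, and Neat1 at −0.997 lies furthest to the left.

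Both knockdown comparisons share the miScramble libraries, so their likeness is no independent result, and the groups were compared directly. Between miRbmx and miRbmxl1 none of the 8 RNAs passed by edgeR or DESeq2, where 0.0114% of all genes, a count of 2, passed in edgeR. With an unadjusted p under 0.05 there were 2, Neat1 and Tug1, where 5.70% of all genes had one. Neat1 differed by −0.58 ± 0.15 (miRbmx minus miRbmxl1, 95% confidence interval −0.91 to −0.25, adjusted p = 0.859, edgeR). Without the filter on low counts it was called at nearly the same estimate (−0.57, adjusted p = 4.8e-12), and without miRbmxl1 replicate 2 the estimate was −0.32 (adjusted p = 1.000). The SE was 0.0705 without the filter against 0.155 with it, so the lower adjusted p came with a smaller SE and not with a larger change. Neat1 was lower in miRbmx in 3 of 4 pairs, and replicate 4 went the other way, at 69.7 CPM in miRbmx against 67.2 in miRbmxl1. Malat1 differed by −0.18 (interval −0.36 to 0.00, adjusted p = 0.862) and Tug1 by −0.17 (interval −0.33 to −0.01, adjusted p = 0.859). The Malat1 estimate was −0.096 without miRbmx replicate 1 and −0.101 without miRbmxl1 replicate 2, and that of Tug1 was −0.096 without miRbmxl1 replicate 2. An adjusted p above the threshold does not show that both knockdowns act alike.

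The replicate number accounted for part of the spread of some of these RNAs. With the group held, Malat1 differed among the replicate numbers (adjusted p = 0.00376, edgeR's quasi-likelihood F-test), with means over the 3 groups of 2335 CPM in replicate 1, 2757 in replicate 2, 1938 in replicate 3 and 2457 in replicate 4. Meg3 differed as well (adjusted p = 0.0235), with 1.14, 1.63, 1.34 and 0.737 CPM. The other 6 did not pass, where 35.3% of all genes passed. Neat1, one of these 6, had means of 82.2, 87.5, 78.2 and 83.0 CPM (adjusted p = 0.764).

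Fitted within the sets of replicate numbers that differ in the share of reads outside genes, Neat1, Malat1 and Tug1 kept their direction in miRbmx. Neat1 changed by −1.11 ± 0.20 in replicates 1 and 2 (adjusted p = 0.124) and by −0.89 ± 0.09 in replicates 3 and 4 (2.1e-05). Malat1 changed by −0.48 ± 0.13 (0.138) and by −0.30 ± 0.07 (0.00852), and Tug1 by −0.35 ± 0.09 (0.130) and by −0.32 ± 0.07 (0.00824), all by edgeR. Kcnq1ot1 had opposite signs, −0.55 ± 0.14 (adjusted p = 0.138) in replicates 1 and 2 and 0.17 ± 0.08 (0.194) in replicates 3 and 4. In replicates 1 and 2 alone 0.023% of all genes passed, and in replicates 3 and 4 alone 10.1% did.

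In miRbmxl1 the estimates of Neat1 and Tug1 lay further apart between those sets than in miRbmx, and those of Malat1, Pvt1 and Kcnq1ot1 lay closer together. Neat1 changed by −0.15 ± 0.19 in replicates 1 and 2 (adjusted p = 0.800) and by −0.71 ± 0.09 in replicates 3 and 4 (1.9e-04, edgeR). Malat1 changed by −0.15 ± 0.13 (0.677) and by −0.27 ± 0.07 (0.0223), and Tug1 by 0.00 ± 0.09 (0.998) and by −0.33 ± 0.07 (0.0106). In replicates 3 and 4 alone 4 of the 8 RNAs passed, these 3 and Mirg, where 5.53% of all genes did, and in replicates 1 and 2 alone 0.172% of all genes did. The difference between the sets was not tested, each set holds 2 libraries per group, and what the sets stand for is not given in the labels.

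**Figure D4:**
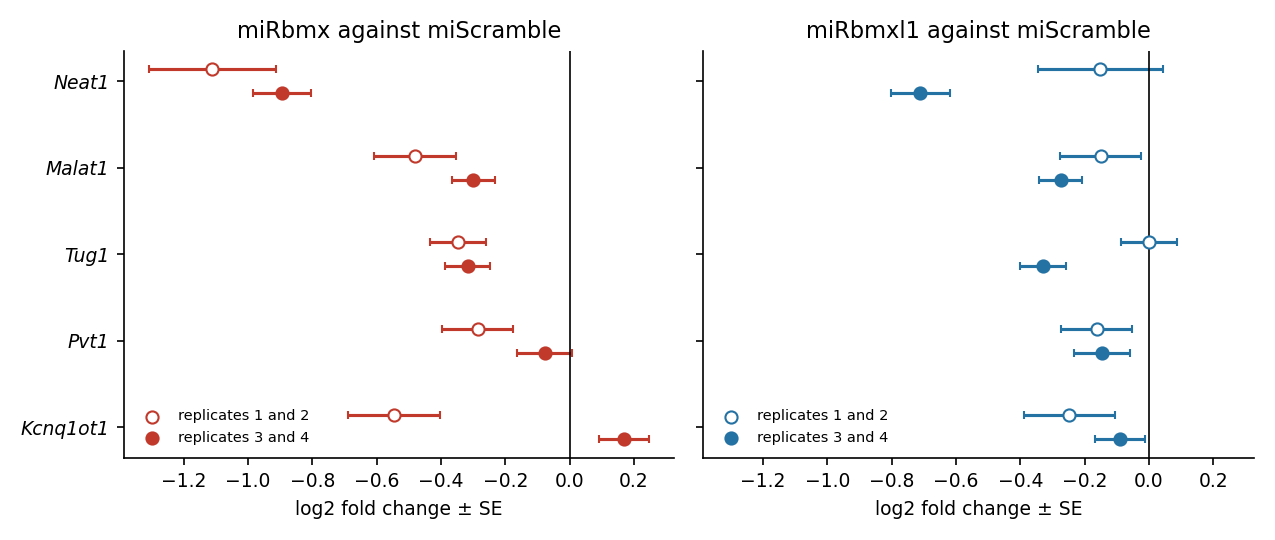
log2 fold change ± SE (horizontal axes) of the 5 better expressed RNAs against miScramble, fitted on replicates 1 and 2 (open) or replicates 3 and 4 (filled), for miRbmx on the left and miRbmxl1 on the right. Neat1 lies at −1.11 and −0.89 on the left, and at −0.15 and −0.71 on the right.

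The maternally expressed RNAs of the Dlk1-Dio3 domain had few reads, and none was called in miRbmx. Meg3, with 27 to 104 counts per library, stood at 0.897, 1.33, 0.854 and 0.604 CPM in miScramble and at 1.03, 1.38, 1.77 and 0.592 CPM in miRbmx (0.36 ± 0.24, adjusted p = 0.388, edgeR), and without miRbmx replicate 3 its estimate was 0.077. Rian, with 102 to 306 counts, stood at 3.75, 3.35, 2.80 and 1.99 CPM in miScramble and at 2.47, 3.39, 3.26 and 3.37 CPM in miRbmx (0.11 ± 0.22, adjusted p = 0.797). The Rian estimate was −0.17 without miRbmx replicate 4, 0.35 without replicate number 1 and 0.23 with a GC trend removed, so its direction was not resolved. Mirg, with 1 to 47 counts, stood at 0.322, 0.535, 0.111 and 0.0195 CPM in miScramble and at 0.657, 0.432, 0.373 and 0.394 CPM in miRbmx (1.18 ± 0.49, adjusted p = 0.148). Without the filter on low counts Mirg was called (1.20 ± 0.40, adjusted p = 0.0436). The groups overlapped for each of these RNAs.

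In miRbmxl1 the same RNAs were higher than miScramble in all 4 same-number pairs, where 13.4% of all genes were, and none passed. Without the filter on low counts Rian (0.53 ± 0.16, adjusted p = 0.0370) and Mirg (1.28 ± 0.39, adjusted p = 0.0328) were called, at smaller SE than with the filter. Meg3 stood at 1.49, 2.18, 1.39 and 1.02 CPM (0.73 ± 0.24, adjusted p = 0.0957, edgeR) and Rian at 3.99, 6.43, 4.81 and 2.38 CPM (0.53 ± 0.21, adjusted p = 0.167). Mirg stood at 0.395, 0.987, 0.560 and 0.243 CPM (1.28 ± 0.48, adjusted p = 0.144). Replicate 4 was the lowest miRbmxl1 library of each and replicate 2 the highest, and the same numbers were lowest and highest in miScramble for Meg3 and Mirg. The Mirg estimate rests on miScramble replicates 3 and 4, with 6 counts and 1 count: in replicates 3 and 4 alone it was 2.58 in miRbmx (adjusted p = 0.0316) and 2.55 in miRbmxl1 (0.0493), and in replicates 1 and 2 alone 0.42 (0.716) and 0.67 (0.662).

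**Figure D5:**
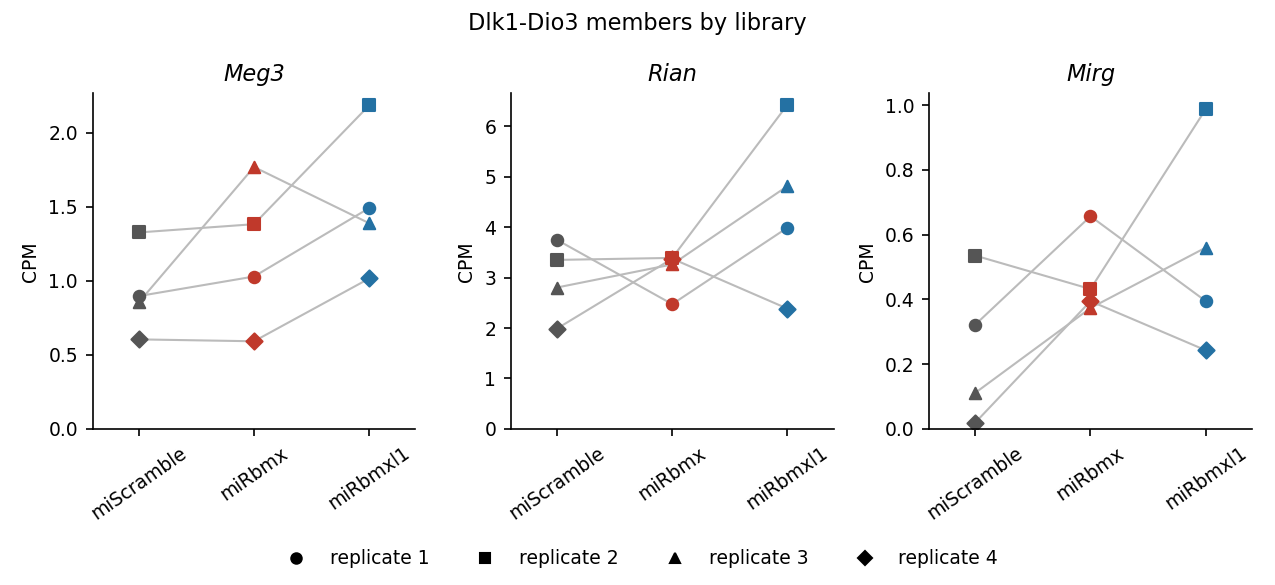
CPM of Meg3, Rian and Mirg in each library (vertical axes start at 0), with grey lines joining the libraries of 1 replicate number across the 3 groups. The miRbmxl1 library of replicate 2 is the highest point in each panel, at 2.18, 6.43 and 0.987 CPM, and miScramble replicate 4 of Mirg lies at 0.0195.

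Few reads were counted for the small RNAs that these transcripts host. The 2 miRNA genes annotated inside Meg3 had 0 counts in 12 libraries, the 4 inside Rian had 5 counts together, and the 14 inside Mirg had 5. Of 13 small nucleolar RNA genes inside Rian, 1 had a single count. Exons of Meg3, Rian and Mirg overlap some of these genes on the same strand, and how the counting assigned reads there is not given in the sources used here. Reads with several alignments, 20.6 to 26.5% of each file's total, were counted for no gene. How well these libraries capture small RNAs was not tested, so the low counts do not show that the small RNAs were absent.

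Protein-coding neighbours in the Dlk1-Dio3 domain ranged from 0 counts to CPM levels above those of the 3 RNAs. Dlk1, a paternally expressed gene for a Notch-related membrane protein, averaged 19.9 ± 1.25 CPM in miScramble, 23.1 ± 0.650 in miRbmx (0.21 ± 0.07, adjusted p = 0.0750, edgeR) and 21.1 ± 1.91 in miRbmxl1 (0.08 ± 0.07, adjusted p = 0.568). Rtl1, a retrotransposon-derived gene antisense to miRNAs of the maternal allele, averaged 1.82, 2.04 and 2.84 CPM (0.19 ± 0.21, adjusted p = 0.614, and 0.64 ± 0.20, adjusted p = 0.0818). Dio3, for a thyroid hormone deiodinase, had 0 counts in all 12 libraries. Of the 9 other listed genes of the domain 6 were tested, and edgeR called 1 in miRbmx, where 8.35% of all genes passed (3 with an unadjusted p under 0.05, where 24.9% of all genes had one). It was the non-coding RNA B830012L14Rik, with a mean of 0.0535 CPM in miScramble, which is under the level of 3 counts, and 0.316 CPM in miRbmx (2.65 ± 0.66, adjusted p = 0.0234, edgeR, 0.274 without the block), on 0 to 20 counts per library. DESeq2 gave that gene no adjusted p and called none of the other 5. In miRbmxl1, where 4.46% of all genes passed, edgeR called none of the 6 (3 with an unadjusted p under 0.05, against 19.8% of all genes) and DESeq2 called 1 of 5.

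Around Kcnq1ot1, 2 genes that the RNA is known to silence were at or near the limit of detection. Cdkn1c, a cell-cycle inhibitor, had 11 counts over the 12 libraries, and Phlda2, a growth-restraining placental gene, had 21. Of 16 other listed genes of the Kcnq1 domain 8 were tested, and none passed in miRbmx (1 with an unadjusted p under 0.05, below the 24.9% of all genes) or in miRbmxl1 (0, against 19.8%) by edgeR, nor by DESeq2 among the 6 to which it gave an adjusted p. Their median log2 fold changes were 0.05 and 0.06. Myc, the neighbour of Pvt1, averaged 420.5 ± 35.04 CPM in miScramble, 404.5 ± 22.1 in miRbmx (−0.06 ± 0.09, adjusted p = 0.736) and 369 ± 46.8 in miRbmxl1 (−0.19 ± 0.09, adjusted p = 0.242).

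Imprinted genes outside both domains gave 2 calls of 16 tested in each knockdown, both lower, where 8.35% of all genes passed in miRbmx and 4.46% in miRbmxl1. With an unadjusted p under 0.05 there were 6 of the 16 in miRbmx and 5 in miRbmxl1 (24.9 and 19.8% of all genes), and DESeq2 called 4 of 14 and 2 of 13. Impact, a regulator of the eIF2α kinase GCN2, averaged 268 ± 9.46 CPM in miScramble, 182 ± 30.1 in miRbmx (−0.57 ± 0.08, adjusted p = 0.00241, edgeR) and 182 ± 10.5 in miRbmxl1 (−0.55 ± 0.08, adjusted p = 0.00304). Usp29, a deubiquitinase-family gene, averaged 10.3, 7.64 and 7.64 CPM (−0.44 ± 0.11, adjusted p = 0.0226, and −0.45 ± 0.11, adjusted p = 0.0329). The median change of the list was 0.00 in miRbmx and −0.01 in miRbmxl1, against 0.00 and 0.007 over all genes. No gene of the list passed without the block.

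Of 14 genes for proteins that build paraspeckles with Neat1, edgeR called 1 higher and none lower in miRbmx, a share near the 8.35% of all genes that passed (2 with an unadjusted p under 0.05, where 24.9% of all genes had one, and 2 called by DESeq2). The gene that rose was Rbm14, a coactivator needed for paraspeckle assembly, which went from 76.7 ± 6.96 to 88.9 ± 7.56 CPM (0.21 ± 0.06, adjusted p = 0.0318, edgeR, 0.510 without the block). Nono and Sfpq, core paraspeckle proteins named here for their role after their values were seen, did not pass. Nono averaged 309.6 ± 12.03 and 343 ± 11.6 CPM (0.15 ± 0.05, adjusted p = 0.0821), and Sfpq 326 ± 40.1 and 342 ± 15.5 CPM (0.07 ± 0.07, adjusted p = 0.570). In miRbmxl1, where 4.46% of all genes passed, edgeR called none of the 14 (1 with an unadjusted p under 0.05, against 19.8% of all genes), nor did DESeq2. The median of the list was 0.03 in miRbmx and −0.03 in miRbmxl1.

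Among 12 speckle proteins and processing factors of Malat1, 3 fell in miRbmx and none rose, where 8.35% of all genes passed and 4.19% passed and were lower, with a list median of −0.14. Ddx5, an RNA helicase of splicing, averaged 990.1 ± 103 CPM in miScramble and 777 ± 94.3 in miRbmx (−0.35 ± 0.07, adjusted p = 0.00918, edgeR, 0.274 without the block). Srsf3 (−0.22 ± 0.06, adjusted p = 0.0312, 0.434 without the block) and Srsf2 (−0.42 ± 0.11, adjusted p = 0.0341, 0.673 without the block), both serine- and arginine-rich splicing factors, made up the rest, and DESeq2 called 2 of the list. In miRbmxl1 Ddx5 was the 1 gene of the list called, where 4.46% of all genes passed, at 788 ± 44.8 CPM (−0.32 ± 0.07, adjusted p = 0.0172, 0.390 without the block). Of the 12, 5 had an unadjusted p under 0.05 in miRbmx and 4 in miRbmxl1, where 24.9 and 19.8% of all genes had one. Elac2, the nuclease that trims the small RNA cut from the Malat1 end and likewise named for its role, averaged 52.1 ± 11.2, 56.5 ± 12.5 and 57.9 ± 12.7 CPM in the 3 groups (0.11 ± 0.06, adjusted p = 0.220, in miRbmx).

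Of 28 other well-known long non-coding RNAs 24 were matched and 17 tested, and edgeR called 3 lower and none higher in miRbmx, where 4.19% of all genes were called lower. Of the 17, 7 had an unadjusted p under 0.05, where 24.9% of all genes had one, and DESeq2 called 5 of 14. Xist, the RNA that coats the inactive X chromosome, averaged 1376 ± 167 CPM in miScramble and 1008 ± 228 in miRbmx (−0.48 ± 0.13, adjusted p = 0.0335, edgeR), Dleu2, the host of a miRNA pair, 24.3 ± 3.897 and 18.9 ± 5.41 CPM (−0.39 ± 0.08, adjusted p = 0.0112), and Mir124a-1hg, a host of the neuronal miR-124, 3.79 ± 1.82 and 2.43 ± 1.58 CPM (−0.72 ± 0.20, adjusted p = 0.0375). None of these 3 passed without the block. The median of the 17 was −0.32, lower than the −0.18 of the 8 RNAs described here, so these medians do not set the latter apart. In miRbmxl1 edgeR called none of the 17 (4 with an unadjusted p under 0.05, against 19.8% of all genes, and 1 of 14 called by DESeq2), at a median of −0.12.

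Genes whose log2 CPM followed each RNA most closely over the 12 libraries are given as a description among 10537 genes with a mean of at least 5 CPM. All points of a correlation share their libraries, groups and replicate numbers. For Neat1 these were Efcab2 (Pearson r = 0.927) and the non-coding RNA Gm48626 (0.906), for Malat1 Cdh2 (0.884), which encodes N-cadherin, and A330076H08Rik (0.879), and for Tug1 Usp49 (0.903) and Zfp623 (0.901). Kcnq1ot1 was followed by the unconfirmed gene models Gm38082 (0.955) and Gm38042 (0.937), and Pvt1 by Cspp1 (0.947), a centrosomal protein gene, and Gm37206 (0.926). Meg3 was followed by Mllt11 (0.893) and Ubxn2a (0.880), Rian by Rnf170 (0.863) and Cacna1i (0.847), and Mirg by Fah (0.896) and Washc3 (0.893). Only genes outside the list of 9 were searched.

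Promoter windows of RefSeq (GRCm38.p6), 250 bases before to 50 after the start, were matched for 7 of the 9 genes, with Neat1 and Pvt1 unmatched. They are printed for Malat1 and Tug1, the matched genes that fell, on the minus strand, with matches in capitals. The Tug1 window lies wholly inside the GENCODE gene, downstream of the start annotated there, so the starts of the 2 annotations differ. This also holds for the windows of Miat and Mirg and for the downstream window of Meg3. The motifs searched on both strands were the CCAAT box (CCAAT), the TATA box (TATAAA), the cyclic AMP response element (TGACGTCA) and its shorter core (TGACG), and the E-box (CACGTG) and its shorter core (ACGTG). Each shorter core lies within the longer motif named with it.

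Malat1 promoter, chr19:5802623-5802922: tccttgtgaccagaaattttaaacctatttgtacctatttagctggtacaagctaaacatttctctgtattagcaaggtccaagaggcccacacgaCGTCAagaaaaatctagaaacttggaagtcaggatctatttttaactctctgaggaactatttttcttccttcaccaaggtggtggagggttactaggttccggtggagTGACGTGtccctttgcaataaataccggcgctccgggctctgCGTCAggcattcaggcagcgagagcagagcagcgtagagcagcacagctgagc
Tug1 promoter, chr11:3648765-3649064: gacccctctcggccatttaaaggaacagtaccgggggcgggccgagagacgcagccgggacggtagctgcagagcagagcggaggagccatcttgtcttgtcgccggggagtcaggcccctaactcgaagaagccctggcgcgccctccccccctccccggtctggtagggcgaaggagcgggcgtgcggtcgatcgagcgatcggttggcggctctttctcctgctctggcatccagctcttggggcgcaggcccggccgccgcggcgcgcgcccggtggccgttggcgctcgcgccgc

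The Malat1 window held TGACG 3 times and ACGTG 1 time, at 47.0% G and C with 10 CG dinucleotides, and the Tug1 window held none of the 6 motifs, at 71.3% G and C with 37 CG dinucleotides. So the 2 windows shared no match. Over 32851 such windows TGACG occurred in 20.8%, ACGTG in 19.6%, CCAAT in 37.4%, TATAAA in 13.6%, CACGTG in 7.15% and TGACGTCA in 1.79%. Of the other matched members, the upstream of 2 Meg3 windows held TGACGTCA 1 time, TATAAA 2 times and CCAAT 1 time, the Kcnq1ot1 window CCAAT 3 times, ACGTG 2 times and TGACG 1 time, and the Mirg window CCAAT 1 time, whereas the Rian and Miat windows held none. A match is a run of letters and not a bound site.

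GGACT, a form of the sequence at which N6-methyladenosine is laid down, was counted on the transcribed strand because Rbmx protein is known to bind methylated RNA. The longest transcripts of the RNAs that fell held 1.11 (Neat1), 1.29 (Malat1) and 1.34 (Tug1) GGACT per kilobase. Those that did not pass held 0.247 (Rian), 0.859 (Kcnq1ot1), 1.1 (Meg3), 1.57 (Mirg) and 1.81 (Pvt1), so the RNAs that fell lay within the range of the others. The median over 1607 long non-coding RNAs was 0.951 per kilobase.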

How the data were processed

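Total RNA of 12 sorted Neuro-2a samples, depleted of ribosomal RNA, was made into stranded libraries, per the labels' protocols. The authors deposited raw counts of reads per Ensembl gene. The submitters' processing notes name cutadapt, STAR 2.5.3a, HTSeq 0.6.1p1 and build mm10 (GRCm38); the annotation, counting mode and strand setting are not given in the sources used here. The 5 rows that name no gene held 52.3 to 57.4% of each file's total and were left out.

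Counts were fitted with edgeR 4.0.16 (R 4.3.3; TMM scaling; filterByExpr with a minimum count of 10 and total of 15; 17569 genes; quasi-likelihood F-test; group plus replicate number over 12 libraries; Benjamini-Hochberg over all genes; call at adjusted p under 0.05). The fit was tested on simulated data. Those data held a replicate effect by construction, so they cannot show whether the block is right here. The replicate number was set as a block beforehand, and what it stands for is not in the labels. Deviations from the group mean correlated at r = 0.195 to 0.524 over 12 pairs of libraries of the same number. Over 36 other pairs r was −0.573 to 0.431, so the ranges overlapped. CPM used TMM library sizes, and CPM per kilobase the union of GENCODE M21 exons (55141 of 55401 identifiers matched). Alternatives were no block, DESeq2 1.42.0, other scalings, no filter, GC trend removed and libraries left out. The members and gene lists were chosen with earlier results of these data known. Named from the lists were genes called, up to 4 per list and comparison, and 7 fixed neighbours, with Nono, Sfpq and Elac2 added after their values were seen; for likeness, the 2 genes of highest Pearson r per RNA. Dixon's ratio was applied to each group of 4 libraries.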

Additional observations from a re-analysis of the deposited data

Results flagged for a closer look

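In 2 of 36 groups of 4 libraries, 1 library stood apart from the other three by Dixon's ratio at the 95% level, which chance alone does in about 1 in 20 groups. Kcnq1ot1 was at 63.3 CPM in miRbmx replicate 1, against 104 to 109.7 CPM in the other miRbmx libraries. Rian was at 2.47 CPM in the same library, against 3.26 to 3.39 CPM in the others.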

How the results depend on the processing

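Without the replicate block the RNAs called in miRbmx numbered 0 in place of 3, and genes called numbered 1 in place of 1467 in miRbmx and 1 in place of 783 in miRbmxl1; leaving out the block changed no other call among the RNAs in these comparisons. In replicates 1 and 2 alone, miRbmx gave 0 of the RNAs and 4 genes, miRbmxl1 gave 30 genes, and miRbmx against miRbmxl1 gave 4 genes; in replicates 3 and 4 alone miRbmxl1 gave 4 of the RNAs, and the direct comparison 18 genes. Without a filter on low counts, miRbmx gave 4 of the RNAs in place of 3 (Mirg added), miRbmxl1 gave 4 of the RNAs (Malat1, Neat1, Rian and Mirg) and 1243 genes, the direct comparison 1 (Neat1) and 86, and the replicate number 5 of the RNAs in place of 2. The log2 fold changes of the RNAs added without the filter stayed nearly the same, and their SE was smaller. DESeq2 called 1279 genes in miRbmxl1 and 10 in the direct comparison. Estimates that turned sign were Rian in miRbmx at −0.30 and Tug1 in miRbmxl1 at 0.0004 (replicates 1 and 2), Kcnq1ot1 in miRbmx at 0.17 (replicates 3 and 4), and in the direct comparison Kcnq1ot1 at 0.0048 without the filter and, in replicates 3 and 4, Kcnq1ot1 at 0.26, Tug1 at 0.011, Pvt1 at 0.067 and Mirg at 0.028; none of these had passed. For the replicate number, leaving out 1 library gave 1 to 3 RNAs. Leaving out 1 library or 1 replicate number gave 1 to 3 RNAs and 146 to 1904 genes in miRbmx. In miRbmxl1 it gave 0 to 1 and 100 to 1032, and in the direct comparison 0 and 2 to 7. It moved the estimates of Kcnq1ot1 (−0.36 to 0.059) and Rian (−0.17 to 0.35) in miRbmx, of Kcnq1ot1 in miRbmxl1 (−0.28 to 0.0103), and of Kcnq1ot1 (−0.17 to 0.17), Mirg (−0.47 to 0.34) and Pvt1 (−0.0955 to 0.0353) in the direct comparison, across 0. The lowest gene counts came without replicate number 3 in miRbmx (146) and without replicate number 4 in miRbmxl1 (100). Fits on fewer libraries have fewer residual degrees of freedom; the cause of the other shifts was not tested. RLE scaling and TMM factors from protein-coding genes changed no call and no sign among the 8 RNAs. With the longest transcript as length, Tug1 stood at 15.8, Pvt1 at 9.45 and Rian at 0.367 CPM per kilobase in miScramble. Depth limits Mirg and Miat, which lie near 3 counts in some libraries.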
